A study of Mus musculus with 12 samples.

Results

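The genes described here are families of proteases, protease inhibitors and their relatives in CT26 cells. They are matrix metalloproteases (Mmp genes), ADAM proteases, ADAMTS and ADAMTS-like proteins, their tissue inhibitors (Timp genes) and the serpins. The plasminogen activators Plau and Plat are included with the receptor Plaur. Some members, such as the clade B serpins and Serpinh1, act inside cells. All were chosen by gene symbol alone, and 71 of the 17718 genes in the count table matched. The 71 comprise 13 Mmp, 13 Adam, 14 Adamts or Adamtsl, 4 Timp and 24 serpin genes together with Plau, Plat and Plaur. Of these, 47 had enough reads to be tested and 24 did not, and the latter are given by their counts. RNA-seq was done on cultured CT26 cells, an untreated mouse colorectal carcinoma line, with 3 libraries labelled Mll3 wild-type and 3 labelled Mll3 knock-out. The gene is now called Kmt2c and encodes an enhancer-associated histone methyltransferase. The series asks how MLL3 mutation relates to immunotherapy, and the cultured cells allow protease and inhibitor transcripts to be compared between genotypes outside a tumour. Whether the knock-out cells are a pool or 1 clone, and whether the number on a knock-out column is a guide or a replicate, is not said in the labels, and CUT&Tag and tumour single-cell samples of the series were not analysed here.

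Matrix metalloproteases are secreted or membrane-bound zinc enzymes that are made as inactive precursors and cut collagens, proteoglycans and other matrix proteins once activated. ADAMs are membrane-anchored relatives that release the outer parts of growth factors, cytokines and receptors, and ADAMTS enzymes are secreted relatives that trim procollagens and proteoglycans. TIMPs bind the active site of these enzymes. Serpins trap mainly serine proteases, and among their targets are the plasminogen activators, which turn plasminogen into plasmin at the cell surface. In carcinomas these systems are known for their part in invasion, matrix turnover and the shedding of surface ligands.

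Total counts ran from 9559658 to 13406013 per library, and members of these families took 27192 to 38648 of them. Levels below are counts scaled to CPM with TMM factors, where 1 count is worth 0.0786 to 0.108 CPM; they are not divided by transcript length, so they compare libraries and not genes. Wild-type values are listed as replicates 1, 2 and 3, and knock-out values in the order of the columns sg1, sg2 and sg3. The targeted gene, Kmt2c, stood at 24.9, 26.2 and 25.0 CPM in the wild-type and 16.0, 11.2 and 14.8 CPM in those of the knock-out (edgeR adjusted p = 4.33e-08), so transcript remained in every knock-out library. Of 10 markers fixed for colorectal epithelium, 5 were in the table, and Krt18 and Krt20 held most of their counts, while Epcam, Cdh1, Krt19, Cdx2 and Cldn7 had no row. Summed over the list, the markers stood at 54.2 to 57.2 CPM in wild-type and 162 to 175 CPM in knock-out libraries. Of 10 leukocyte markers 6 had rows, with summed levels of 34.6 to 39.9 and 42.6 to 50.4 CPM, and of 4 tested, 2 rose (Lyz2 and Cd14), 1 fell (Csf1r) and Cd68 was not called. Lyz2 went from 0.553 ± 0.307 to 8.802 ± 0.535 CPM, Cd14 from 17.1 ± 1.36 to 25.1 ± 1.64 CPM and Csf1r from 15.2 ± 1.02 to 6.72 ± 1.55 CPM. Ptprc, which defines leukocytes, stood at 0.0961 ± 0.0155 and 0.277 ± 0.0782 CPM (SD, n = 3 each). Fibroblast markers (6 of 8 with rows) summed to 1009 to 1025 and 1320 to 1359 CPM, mostly Col1a2. Of 5 tested, 4 rose (Col1a1, Col1a2, Pdgfra and Dcn) and Pdgfrb was not called. Col1a1 went from 95.1 ± 10.6 to 283 ± 9.87 CPM and Col1a2 from 880 ± 6.45 to 1009 ± 11.7 CPM. Of 5 endothelial markers only Pecam1 was tested, and it rose from 0.540 to 2.19 CPM. The untested Vwf had 0.695 and 0.152 CPM, Kdr 0.206 and 0.183 CPM and Tek 0.262 and 0.151 CPM, wild-type first. Of 12 markers of keratinocytes, mast cells, hepatocytes and neutrophils, only Apoa1 was tested, and it fell from 1.55 to 0.584 CPM. The untested Trp63 had 0.156 and 1.23 CPM and Krt5 0.0942 and 0.0653 CPM. The part of other cell types in the results was not tested.

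Most of the tested protease and inhibitor genes differed between the genotypes. Of 47 tested, 27 were higher and 11 were lower in the knock-out, and 9 did not pass the threshold (edgeR quasi-likelihood test, Benjamini-Hochberg adjusted p under 0.05 over 13013 genes). Over all tested genes the share called was 66.2%, with 33.1% higher and 33.2% lower, against 57.4% and 23.4% of the 47. Changes of at least 2-fold were found for 17 members in the higher direction and 2 in the lower, where all genes gave 10.1% and 4.99%. The groups did not overlap for 39 of the 47 (68.7% of all tested genes). The median log2 fold change (knock-out over wild-type, called log2 change below) was 0.48 for the 47 and 0.02 for all tested genes. Genes with few reads could enter the test through the group in which they were high. Among the 37 with at least 1 CPM in every library, 18 were higher and 11 lower. Under that filter 78.4% of the members were called and 62.1% of these calls were higher, against 67.8% and 49.4% for all tested genes. The median log2 change was then 0.27 for the members and 0.003 for all tested genes.

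**Figure D1:**
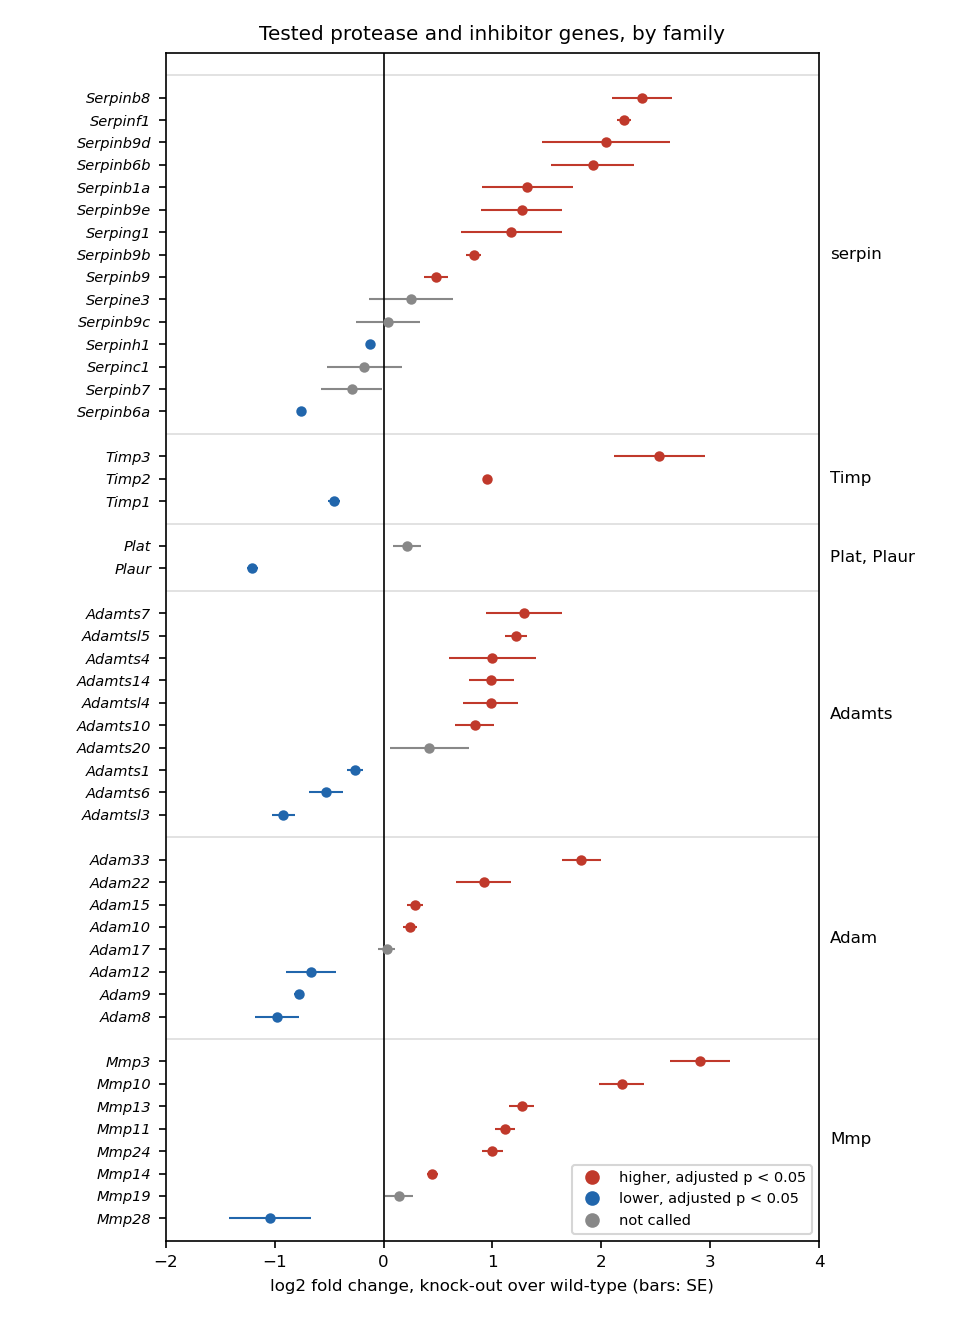
Log2 fold change of the tested members (x axis, knock-out over wild-type, bars are SE, n = 3 per genotype), grouped by family on the y axis and coloured by call. Of these, 27 lie to the right as called higher and 11 to the left as called lower; Mmp3 has the highest value at 2.90 and Plaur the lowest at -1.20.

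The calls are given by abundance as counts, with no test of a difference between the classes. Of 17 tested members with a mean of at least 30 CPM, 9 were higher and 6 lower, where 28.7% of all genes of that abundance were higher and 48.8% lower. Of the 30 tested members under 30 CPM, 18 were higher and 5 lower, against 37.3% and 17.9% of all genes of that abundance. Of the 11 genes that fell, 7 stood above 30 CPM in wild-type, among them Serpinh1, Serpinb6a, Adam9, Plaur and Timp1. Of the 27 that rose, 14 stood below 5 CPM in wild-type. Over all genes, too, the share lower was larger at 30 CPM or more (48.8%) than under it (17.9%). For the cut at 5 CPM no all-gene share was counted, and such genes could enter the test through the knock-out libraries.

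Matrix metalloproteases mostly rose. Of the 8 with a test, 6 rose, 1 fell and 1 was not called, with a median log2 change of 1.06. Thus 75% were higher and 12.5% lower, against 33.1% and 33.2% of all tested genes. With at least 1 CPM in every library, Mmp3 was left out and 6 of 7 were called, against 67.8% of all tested genes. Mmp3 (stromelysin-1), an enzyme with a broad range of matrix substrates that also activates other pro-MMPs, stood at 0.864, 1.122 and 2.05 CPM in wild-type and 11.0, 8.82 and 9.71 CPM in knock-out cells, a log2 change of 2.90 (SE 0.276, adjusted p = 7.56e-14). Mmp10 (stromelysin-2) stood at 3.61, 3.16 and 2.26 CPM against 13.4, 14.4 and 14.1 CPM, a log2 change of 2.19 (SE 0.202). Mmp13 (collagenase-3), which cuts fibrillar collagen, stood at 13.4, 14.7 and 16.4 CPM against 36.5, 34.5 and 35.7 CPM, a log2 change of 1.27 (SE 0.112). For all 3 genes every knock-out library lay above every wild-type library. These genes are neighbours on chromosome 9 (mm10), with Mmp13 at 7272514 to 7283333, Mmp3 at 7445822 to 7455975 and Mmp10 at 7502342 to 7510242. Between Mmp13 and Mmp3 lies Mmp1b, a rodent relative of the interstitial collagenases, which had 0, 1 and 0 counts in wild-type and 6, 6 and 4 in knock-out libraries. Its ratio of summed counts was 15.8, with an exact binomial 95% interval of 2.46 to 663. The other 17 tested genes within 5 Mb had a median log2 change of 0.05, with 7 higher and 7 lower.

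The promoters of these chromosome 9 genes are shown because the genes moved together, with Serpinb8 and Plaur, the members outside this run with the largest change up and down among tested ones that hold the same letters. Each window is 300 bases of RefSeq on GRCm38.p6, from 250 before to 50 after an annotated start, and capitals mark TGANTCA, a pattern that covers the sites of AP-1 (FOS and JUN family dimers) and is the same on both strands.
Mmp13 (chr9:7272264-7272563, + strand): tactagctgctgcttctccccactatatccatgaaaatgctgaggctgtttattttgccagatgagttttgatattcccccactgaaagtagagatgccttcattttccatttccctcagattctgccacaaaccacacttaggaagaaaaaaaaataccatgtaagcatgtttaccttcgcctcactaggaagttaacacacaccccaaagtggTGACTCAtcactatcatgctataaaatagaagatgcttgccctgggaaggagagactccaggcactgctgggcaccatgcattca
Mmp1b (chr9:7387977-7388276, - strand): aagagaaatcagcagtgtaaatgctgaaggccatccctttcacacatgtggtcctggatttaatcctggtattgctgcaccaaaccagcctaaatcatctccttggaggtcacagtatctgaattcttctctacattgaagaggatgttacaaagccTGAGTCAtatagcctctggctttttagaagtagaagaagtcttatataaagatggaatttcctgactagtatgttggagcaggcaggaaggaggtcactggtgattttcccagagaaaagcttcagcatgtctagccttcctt
Mmp3 (chr9:7445572-7445871, + strand): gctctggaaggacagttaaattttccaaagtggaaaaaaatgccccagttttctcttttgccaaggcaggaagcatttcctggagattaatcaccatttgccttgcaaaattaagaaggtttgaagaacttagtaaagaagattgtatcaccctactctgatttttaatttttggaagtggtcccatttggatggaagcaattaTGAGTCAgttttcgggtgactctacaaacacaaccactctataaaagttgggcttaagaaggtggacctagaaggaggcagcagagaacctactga
Mmp10 (chr9:7502092-7502391, + strand): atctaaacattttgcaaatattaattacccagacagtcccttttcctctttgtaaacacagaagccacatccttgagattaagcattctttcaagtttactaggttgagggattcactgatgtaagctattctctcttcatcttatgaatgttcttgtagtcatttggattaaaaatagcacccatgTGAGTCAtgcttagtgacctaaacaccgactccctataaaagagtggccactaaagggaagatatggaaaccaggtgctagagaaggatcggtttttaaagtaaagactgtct
Serpinb8 (chr1:107589756-107590055, + strand): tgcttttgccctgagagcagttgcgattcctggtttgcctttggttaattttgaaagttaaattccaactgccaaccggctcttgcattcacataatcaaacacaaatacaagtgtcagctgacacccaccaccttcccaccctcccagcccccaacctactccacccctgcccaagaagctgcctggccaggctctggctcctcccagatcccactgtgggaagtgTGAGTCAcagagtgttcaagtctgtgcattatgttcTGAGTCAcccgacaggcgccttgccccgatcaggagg
Plaur (chr7:24462233-24462532, + strand): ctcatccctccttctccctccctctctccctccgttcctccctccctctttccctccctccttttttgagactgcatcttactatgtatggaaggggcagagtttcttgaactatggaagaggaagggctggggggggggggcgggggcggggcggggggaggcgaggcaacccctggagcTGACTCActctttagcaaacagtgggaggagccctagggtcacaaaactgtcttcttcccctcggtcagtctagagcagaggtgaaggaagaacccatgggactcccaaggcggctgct
The letters begin 35, 93, 46 and 63 bases before the start of Mmp13, Mmp1b, Mmp3 and Mmp10. In Serpinb8 they occur at 23 bases before the start and again after it, and in Plaur at 69 bases before it. Windows were listed for 35 of the 47 tested members, of which 6 held the letters: the 4 that rose were Mmp3, Mmp10, Mmp13 and Serpinb8, Plaur fell, and Serpinb7 was not called. By call, the letters were held by 4 of 21 higher members (19.05%), 1 of 8 lower (12.5%) and 1 of 6 not called (16.67%). Among members that were not tested, Mmp1b, Serpinb2 and Serpinb5 held the letters; Serpinb2 had fewer counts in the knock-out (19 and 4) and Serpinb5 had 3 and 7. Counting all members with a window, 9 of 52 held them. Among tested members the share was 6 of 35 (17.1%), against 6.42% of the tested genes with a window and 8.97% of all genes with a window. Mmp3, Mmp10 and Mmp13, among the 6, are neighbours in 1 run, so the matches do not count as independent. A match is a description of these letters only.

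The other metalloproteases that rose had smaller log2 changes. Mmp11 (stromelysin-3), which is furin-activated inside the cell, went from 24.8 ± 1.86 to 53.7 ± 4.45 CPM, a log2 change of 1.11 (SE 0.0909); the 111 other tested genes within 5 Mb of it on chromosome 10 had a median of 0.61. Mmp24 (MT5-MMP), a membrane-type enzyme, went from 25.1 ± 5.05 to 50.1 ± 2.05 CPM, and its span overlaps BC029722, which also rose (log2 change 0.95). Mmp14 (MT1-MMP), the membrane collagenase that activates pro-MMP2 with the help of TIMP2, stood at 116, 127 and 123 CPM in wild-type and 162, 174 and 163 CPM in knock-out cells, a log2 change of 0.45 (SE 0.0505, adjusted p = 1.91e-11). It lies on chromosome 14, whose tested genes had a median of 0.35, and removing chromosome medians left it at 0.10 (edgeR adjusted p = 0.0728). Mmp19 had 16.9 ± 0.496 and 18.6 ± 2.23 CPM (adjusted p = 0.345) and passed with upper-quartile scaling (0.30, adjusted p = 0.0402). Mmp28 (epilysin), the only tested Mmp gene that fell, went from 2.44, 2.45 and 3.88 to 1.47, 1.56 and 1.15 CPM (log2 change -1.05, SE 0.375, adjusted p = 0.0125). The call was lost without wild-type replicate 3 (-0.81, adjusted p = 0.101) and without knock-out column sg3 (-0.94, adjusted p = 0.0533). Of the gelatinases, Mmp2 had 2 counts in all in wild-type and 6 in knock-out libraries, and Mmp9 had 5 and 20.

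**Figure D2:**
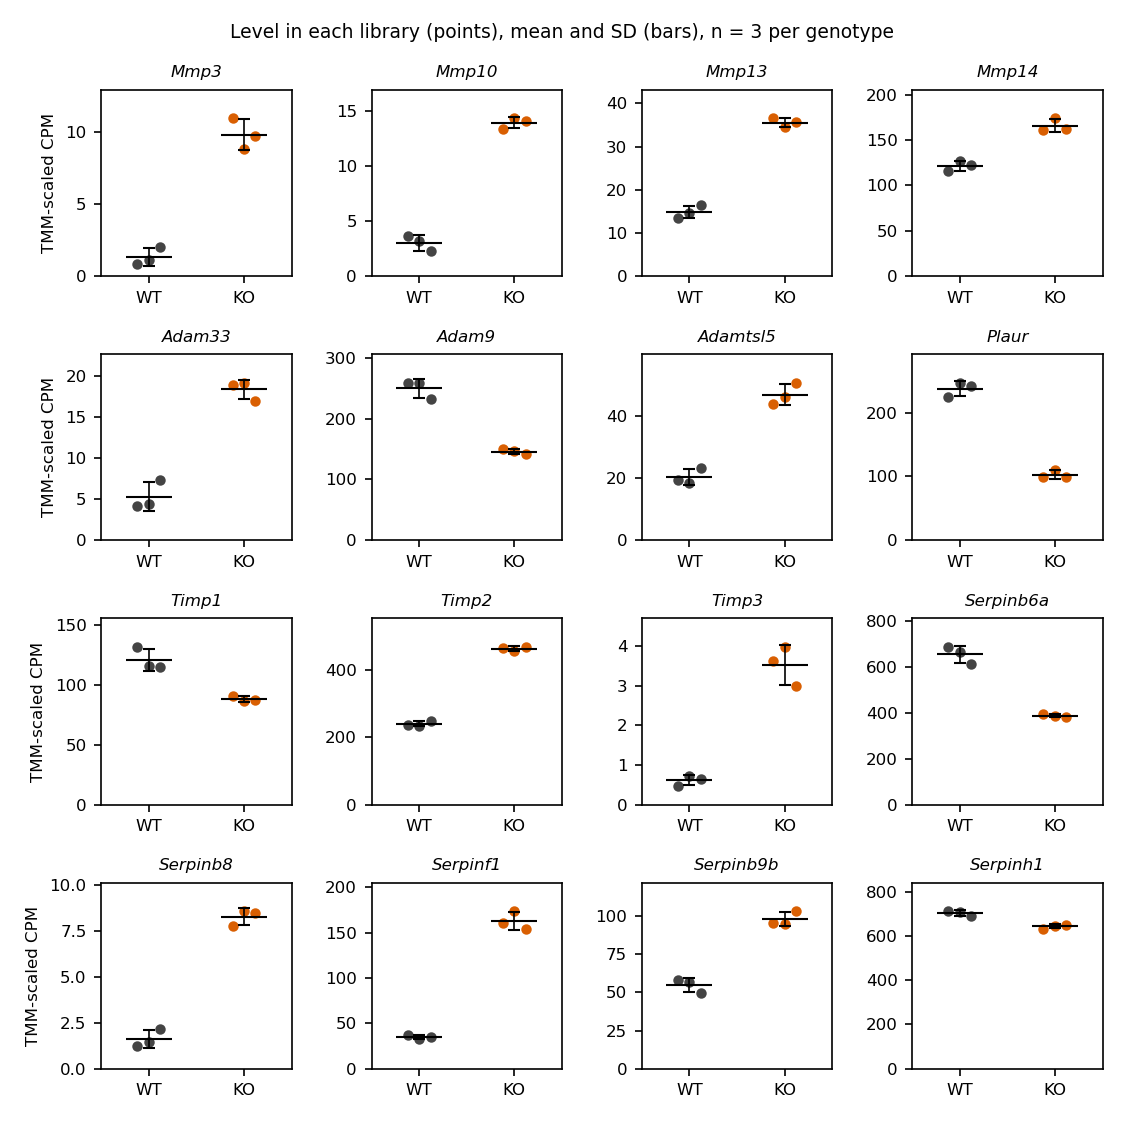
TMM-scaled CPM (y axis, from 0) of 16 members in each wild-type (WT) and knock-out (KO) library as points, with mean and SD as bars, n = 3 per genotype. Mmp3, Mmp10, Mmp13, Timp2, Timp3, Serpinb8, Serpinb9b and Serpinf1 are higher in every KO library, and Plaur, Adam9, Timp1 and Serpinb6a are lower in every KO library.

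ADAM genes were divided. Of 8 tested, 4 rose, 3 fell and 1 was not called (50% higher and 37.5% lower, against 33.1% and 33.2% of all tested genes). The 2 main sheddases differed by small amounts: Adam10, which cuts Notch and cadherins, went from 76.5 ± 5.65 to 90.7 ± 1.74 CPM (log2 change 0.24, SE 0.0623, adjusted p = 0.000608), and Adam17, which releases TNF and EGFR ligands, had 50.3 ± 4.05 and 51.5 ± 3.41 CPM (log2 change 0.03, SE 0.0790, adjusted p = 0.749). With upper-quartile scaling Adam10 had 0.40 and Adam17 had 0.19 (adjusted p = 0.0330). Adam33, a protease known from studies of airway smooth muscle, stood at 4.16, 4.39 and 7.33 CPM in wild-type and 18.9, 19.2 and 17.01 CPM in knock-out cells, a log2 change of 1.82 (SE 0.177, adjusted p = 1.87e-13). Adam22, a catalytically inactive member that binds LGI proteins, rose by 0.92 (SE 0.250), and Adam15 by 0.29 (SE 0.0745) on the log2 scale.

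The 3 ADAM genes that fell include the ADAM transcript with the most counts here. Adam9, a widely expressed sheddase, stood at 258, 259 and 232 CPM in wild-type and 150, 147 and 141 CPM in knock-out cells, a log2 change of -0.78 (SE 0.0466, adjusted p = 1.08e-21). It lies on chromosome 8, where the 54 other tested genes within 5 Mb had a median of -0.44, and removing chromosome medians left it at -0.42 (adjusted p = 1.35e-11). Adam8, a sheddase of leukocytes and tumour cells, went from 9.35, 9.08 and 10.4 to 3.82, 6.14 and 4.52 CPM, and its log2 change was -0.98 (SE 0.205). Its span overlaps the non-coding gene Gm16201, which rose from 5 to 49 summed counts. Adam12, a protease of muscle and stroma, fell by 0.67 on the log2 scale (SE 0.229, adjusted p = 0.00930); without wild-type replicate 2 the value was -0.56 (adjusted p = 0.0566).

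Among ADAMTS and ADAMTS-like genes, 6 of 10 tested rose, 3 fell and 1 was not called, with a median log2 change of 0.91. That is 60% higher and 30% lower, against 33.1% and 33.2% of all tested genes. With at least 1 CPM in every library, 7 of 7 tested were called, against 67.8% of all tested genes. Adamts4 and Adamts7, both called higher in the main fit, and Adamts20 were left out there. Adamts14, a procollagen N-proteinase, went from 4.95, 3.67 and 6.25 to 11.7, 9.60 and 8.17 CPM, a log2 change of 0.99 (SE 0.208), or 0.63 with chromosome medians removed. Adamts10, which binds fibrillin microfibrils, rose by 0.84 (SE 0.180) and Adamts7, a protease of cartilage oligomeric matrix protein, by 1.29 (SE 0.347) on the log2 scale. Adamts4, an aggrecanase, went from 0.629, 2.14 and 1.29 to 2.94, 2.68 and 2.31 CPM (log2 change 1.00, adjusted p = 0.0246); the call was lost with DESeq2 (adjusted p = 0.0547) and on leaving out wild-type replicate 1 (0.61, adjusted p = 0.205). Leaving out knock-out column sg1 (adjusted p = 0.0926) or sg2 (adjusted p = 0.0710) had the same effect. Adamtsl5, an ADAMTS-like protein without a protease domain, stood at 19.3, 18.3 and 23.1 CPM in wild-type and 43.9, 45.9 and 50.6 CPM in knock-out cells, a log2 change of 1.22 (SE 0.0996); the 159 other tested genes within 5 Mb on chromosome 10 had a median of 0.57. Adamtsl4, of the same group, rose by 0.99 (SE 0.253).

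Of the 3 that fell, Adamtsl3 moved most, from 31.7, 37.0 and 34.2 to 18.6, 17.5 and 18.2 CPM (log2 change -0.92, SE 0.108, adjusted p = 7.18e-11). Adamts6 fell by 0.53 on the log2 scale (SE 0.158); without wild-type replicate 1 its value was -0.38 (adjusted p = 0.0624). Adamts1, a protease of versican and aggrecan, went from 66.3 ± 1.10 to 55.3 ± 1.10 CPM (log2 change -0.26, SE 0.0697), and that call did not hold with upper-quartile scaling (-0.11, adjusted p = 0.171) or library size alone (-0.14, adjusted p = 0.0663). Adamts20 was not called (0.42, adjusted p = 0.312), but wild-type replicate 1 held 3.54 CPM against 0.714 and 2.26 CPM in the other wild-type libraries, and without it the value was 1.02 (adjusted p = 0.0412).

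In the plasminogen system the receptor fell. Plaur (uPAR), which holds urokinase at the cell surface, stood at 224, 247 and 241 CPM in wild-type and 99.1, 111 and 98.5 CPM in knock-out cells, a log2 change of -1.20 (SE 0.0503, adjusted p = 9.84e-29). The 123 other tested genes within 5 Mb of it on chromosome 7 had a median of 0.13. Plau, which encodes urokinase, had few counts, with 0, 3 and 2 counts in wild-type and 0, 1 and 0 in knock-out libraries. Plat (tissue plasminogen activator) stood at 16.3, 19.1 and 17.4 CPM against 19.8, 19.3 and 22.01 CPM, with every knock-out library above every wild-type library by a narrow gap (log2 change 0.22, SE 0.125, adjusted p = 0.125). Plat lies on chromosome 8, whose tested genes had a median of -0.36, and with chromosome medians removed it passed the threshold (0.57, adjusted p = 7.27e-05), as it did with upper-quartile scaling (0.37) or unscaled library sizes (0.34).

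The TIMP genes moved in opposite directions. Timp1, an inhibitor of most MMPs, stood at 132, 116 and 115 CPM in wild-type and 90.9, 86.5 and 87.7 CPM in knock-out cells, a log2 change of -0.46 (SE 0.0578, adjusted p = 7.20e-10), or -0.30 with upper-quartile scaling. Timp2, which inhibits MMPs and also takes part in activating pro-MMP2, stood at 236, 234 and 248 CPM against 464, 456 and 468 CPM, a log2 change of 0.95 (SE 0.0390, adjusted p = 4.13e-29). Timp3, which binds the matrix and also inhibits ADAM17 and ADAMTS enzymes, went from 0.471, 0.714 and 0.647 to 3.62, 3.98 and 2.98 CPM, a log2 change of 2.53 (SE 0.420, adjusted p = 5.07e-07). Timp4 was not tested and had 1, 1 and 2 counts against 2, 9 and 12, a ratio of 5.68 (95% interval 1.94 to 22.6). The log2 ratio of Timp2 to Timp1 within a library was 0.99 ± 0.136 in wild-type and 2.39 ± 0.0321 in knock-out libraries, and that of Mmp14 to Timp2 was -0.97 ± 0.0778 and -1.48 ± 0.0779 (SD, n = 3 each). Such ratios do not depend on scaling between libraries, and for both the genotypes did not overlap. With 3 libraries against 3 the 2-sided exact permutation test cannot go below p = 0.1, which was its value for these and for the others of the 7 ratios computed (adjusted p = 0.1). Of the TIMP genes, 3 lie within synapsin genes. Syn1, around Timp1, had 18 and 15 summed counts, Syn3, around Timp3, had 19 and 55, and Syn2, around Timp4, had 24 and 84. Timp1 itself had 913 to 1677 counts in each library, and Timp3 had 6 to 46. No source used here states whether strand was used in counting. Whether reads of a TIMP gene and its host were mixed by the counting was not tested.

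Serpins rose more often than they fell. Of 16 tested, 9 rose, 2 fell and 5 were not called, with a median log2 change of 0.66. The share called, 68.8%, was near the 66.2% of all tested genes. By direction, 56.2% were higher and 12.5% lower, against 33.1% and 33.2% of all tested genes. With at least 1 CPM in every library, 6 of 11 tested serpins were called, against 67.8% of all tested genes. Serpinb1a, Serpinb6b, Serpinb9d, Serpinb9e and Serping1, all called higher in the main fit, were left out there. Their wild-type means were 0.352 to 1.32 CPM, and they could enter the test through the knock-out libraries. Serpinf1 (PEDF), a secreted serpin without protease inhibition that is known as an inhibitor of angiogenesis, stood at 37.7, 32.7 and 35.3 CPM in wild-type and 161, 174 and 154 CPM in knock-out cells, a log2 change of 2.21 (SE 0.0645, adjusted p = 4.68e-36). The 128 other tested genes within 5 Mb of it on chromosome 11 had a median of 0.06. Serping1, the C1 inhibitor of the complement and contact systems, stood at 0.629, 0.612 and 1.40 CPM against 0.979, 2.33 and 2.50 CPM (log2 change 1.17, SE 0.463, adjusted p = 0.0232), with overlapping groups. That call was lost with DESeq2 (adjusted p = 0.0618) and on leaving out wild-type replicate 1 (adjusted p = 0.115) or 2 (adjusted p = 0.0905), and also without knock-out column sg2 (adjusted p = 0.117) or sg3 (adjusted p = 0.141). Serpinh1 (HSP47), the collagen chaperone of the endoplasmic reticulum, went from 703 ± 11.96 to 643 ± 9.11 CPM (log2 change -0.13, SE 0.0340, adjusted p = 0.000867); with library size alone it had -0.0065 (adjusted p = 0.863) and with upper-quartile scaling 0.029 (adjusted p = 0.413). Serpinc1 (antithrombin) and Serpine3 were not called (adjusted p = 0.667 and 0.582).

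Clade B serpins act inside cells, and 7 of 10 tested rose and 1 fell (70% and 10%, against 33.1% and 33.2% of all tested genes). Of those that rose, Serpinb1a, Serpinb6b, Serpinb9d and Serpinb9e had wild-type means of 0.971, 0.960, 0.352 and 1.32 CPM. They could enter the test through the knock-out libraries and were left out with at least 1 CPM in every library. Serpinb9, the granzyme B inhibitor that shields cells from cytotoxic granules, stood at 20.0, 21.1 and 22.3 CPM in wild-type and 32.1, 27.1 and 29.3 CPM in knock-out cells, a log2 change of 0.48 (SE 0.109, adjusted p = 0.000111). Its mouse paralog Serpinb9b went from 58.3, 56.8 and 49.6 to 95.2, 95.04 and 103 CPM, a log2 change of 0.83 (SE 0.0667, adjusted p = 1.87e-16). Serpinb6b, another clade B paralog, went from 1.10, 0.918 and 0.863 to 3.13, 3.29 and 4.71 CPM, a log2 change of 1.92 (SE 0.382), and Serpinb1a, an inhibitor of neutrophil elastase, from 0.707, 1.02 and 1.19 to 2.25, 2.25 and 2.69 CPM. Serpinb9d and Serpinb9e had log2 changes of 2.04 (SE 0.590) and 1.27 (SE 0.373), and without wild-type replicate 2 Serpinb9d had 2.94. Serpinb9c was not called (0.04, adjusted p = 0.909). The Serpinb1, Serpinb6 and Serpinb9 genes are close copies of each other, and reads could be divided among them by the counting, so the values of the rarer copies are uncertain.

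The clade B gene with the most counts fell. Serpinb6a, which inhibits cathepsin G and other serine proteases, stood at 686, 662 and 611 CPM in wild-type and 393, 385 and 381 CPM in knock-out cells, a log2 change of -0.76 (SE 0.0381, adjusted p = 4.64e-25). Its annotated span overlaps Nqo2 and 1110046J04Rik, which fell by 0.84 and 0.69 on the log2 scale, and Ripk1, which was not called (0.02). On chromosome 13 these genes form a run of 12 members from 32842092 to 34002794 (mm10). The 35 other tested genes within 5 Mb had a median of 0.01. On chromosome 1, Serpinb8, an inhibitor of furin, stood at 1.26, 1.43 and 2.16 CPM in wild-type and 7.73, 8.56 and 8.46 CPM in knock-out cells, a log2 change of 2.37 (SE 0.273, adjusted p = 4.05e-11). The 9 other tested genes around it had a median of -0.51, and its neighbour Serpinb7 was not called (-0.29, adjusted p = 0.365). Serpinb2 (PAI-2), in the same run, had 3, 8 and 8 counts in wild-type and 1, 2 and 1 in knock-out libraries, a wild-type to knock-out ratio of 4.81 (95% interval 1.60 to 19.4).

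**Figure D3:**
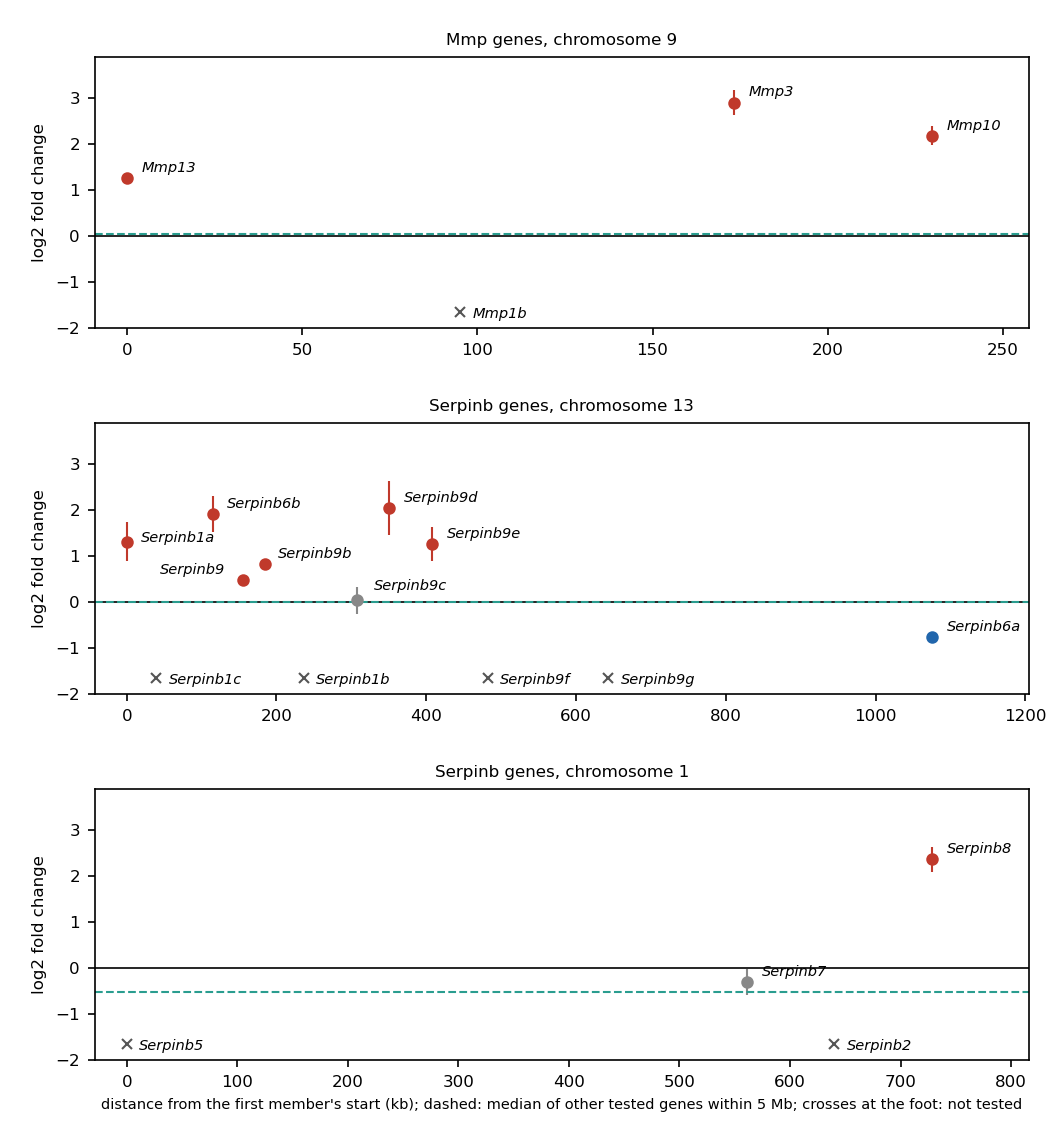
Log2 fold change (y axis, bars are SE) of members in 3 runs of neighbouring genes against distance from the first member's start in kb (x axis); the dashed line is the median of other tested genes within 5 Mb and crosses mark members that were not tested. The 3 tested Mmp genes of chromosome 9 lie between 1.27 and 2.90, and on chromosome 13 Serpinb6a lies at -0.76 below the other tested members.

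Chromosomes differed in their median. Among autosomes, the median log2 change ran from -0.36 on chromosome 8 to 0.36 on chromosome 10. As a description only, since these members were chosen for their call, the log2 change less the median of the tested genes within 5 Mb was 0.07 for Mmp14, whose own SE was 0.0505, and 2.88 for Serpinb8. With chromosome medians removed, 27 members were higher and 11 lower, as before, although Mmp14 lost its call and Plat gained one.

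**Figure D4:**
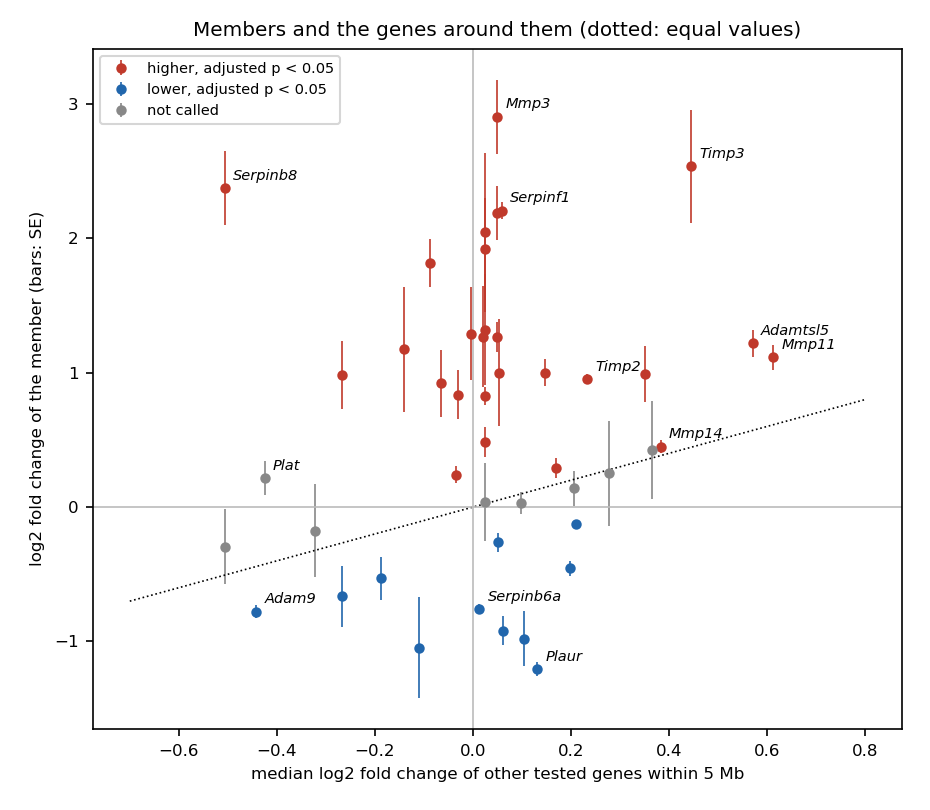
Log2 fold change of the tested members (y axis, bars are SE) against the median of the other tested genes within 5 Mb (x axis); the dotted line marks equal values and colours give the call. Mmp14 lies 0.07 above the dotted line with an SE of 0.0505, Serpinb8 lies 2.88 above it, and Adam9 and Plat lie in surroundings with medians of -0.44 and -0.43.

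The 24 members that were not tested had at most 19 counts in any library. Summed over 3 libraries, 17 had more counts in the knock-out and 7 in the wild-type, and the exact binomial 95% interval of the ratio lay above 1 for 7, below 1 for 2 and included 1 for 15. These intervals cover counting error only. The same counts were not made for the other untested genes, so no all-gene share stands beside them. A rare gene could also enter the count table through the libraries of 1 genotype alone. Besides Mmp1b and Timp4, the 7 were Adam11 (1 and 31 counts), Adamts17 (5 and 31), Mmp9 (5 and 20), Serpinb1c (2 and 13) and Serpinb9g (11 and 26). Of the 31 Adam11 counts in the knock-out, 19 came from column sg2, 4 from sg1 and 8 from sg3. Besides Serpinb2, Mmp23 had fewer counts in the knock-out (39 and 14), and its span overlaps Mib2, which fell by 1.24 on the log2 scale. The 15 with intervals that include 1 were Adam1a, Adam4, Adam5, Adam21, Adamts5, Adamts12, Adamts13, Mmp2, Mmp21, Plau, Serpinb1b, Serpinb5, Serpinb9f, Serpind1 and Serpini1.

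Known partners of these enzymes were taken from 3 lists. Over all tested genes 66.2% were called, 33.1% higher and 33.2% lower. Of 17 tested activators and surface partners, 11 rose and 4 fell, with a median log2 change of 0.17. The thrombospondins Thbs1 and Thbs2, matrix proteins whose complexes with MMPs are cleared by LRP1, had log2 changes of 2.09 and 1.13, and Mrc2 (Endo180), a collagen uptake receptor that associates with uPAR, went from 7.31, 8.67 and 8.52 to 38.8, 34.2 and 46.2 CPM (log2 change 2.29, SE 0.129). Furin, the proprotein convertase that activates MMP11, MMP14 and ADAMs, fell by 0.70 (SE 0.0663). Reck, a membrane-anchored MMP inhibitor, rose by 0.53 (SE 0.239, adjusted p = 0.0451). Among 14 tested regulators of ADAM10 and ADAM17, 9 rose and 3 fell, with a median of 0.21. Rhbdf2 (iRhom2), which carries ADAM17 to the surface, went from 32.4, 31.8 and 40.5 to 18.3, 15.3 and 17.8 CPM (log2 change -1.03, SE 0.114), and Frmd8, which stabilises iRhoms, fell by 0.65. Tspan17 and Tspan5, tetraspanins that bind ADAM10, rose by 1.05 and 0.63, and the adaptor Sh3d19 by 0.48.

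Other secreted, lysosomal or surface proteases and inhibitors rose more often than they fell, 16 of 21 against 2, with a median log2 change of 0.68. Prss23, a secreted serine protease, went from 1.10, 1.84 and 1.40 to 21.2, 23.1 and 23.9 CPM (log2 change 3.99, SE 0.206). Bmp1, the procollagen C-proteinase, rose by 1.30 (SE 0.0721) and its enhancer Pcolce by 0.64 (SE 0.0380). The cathepsins Ctsa, Ctsd and Ctsb rose by 1.06, 0.70 and 0.38, while Ctsl, with the most counts of the list, went from 2871 ± 119 to 2092 ± 29.4 CPM (log2 change -0.46, SE 0.0307). The cysteine protease inhibitors Cst3 and Cstb rose by 0.52 and 0.68. Htra1, a secreted serine protease, fell by 0.98 (SE 0.144).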

How the data were processed

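The authors deposited raw counts, whole numbers of reads per gene, for 17718 Ensembl identifiers, each above 0 in at least 3 of the libraries. Per the submitters' processing notes, the tools of the series include STAR, HTSeq and fastp and the build is mm10. The role of each tool, the annotation and the strand setting were not given in the sources used here. Per the labels' protocols, polyA libraries were made with a strand-specific kit, and all 6 carry the same batch label. Wild-type columns were matched to samples by number, and knock-out columns to the group only.

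Symbols were found for 17650 identifiers, and positions were matched by symbol to RefSeq (assembly GRCm38.p6, which is mm10). Genes were kept with filterByExpr (minimum count 10, minimum total 15), scaled with TMM and tested with edgeR 4.0.16 (R 4.3.3, limma 3.58.1, DESeq2 1.42.0), robust, adjusted over 13013 genes at a threshold of 0.05. SE values were derived from the F statistic, and ± is the SD over 3 libraries. Tested on simulated counts for these 13013 genes, the pipeline recovered 21 of 50 genes with a 1.25-fold change, 38 of 50 with 1.5-fold, 45 of 50 with 2-fold and 50 of 50 with 4-fold. It called 8 of the 12813 that were left unchanged. In the real comparison 66.2% of genes were called, far more than were changed in the simulation. These rates therefore need not hold for the real data, and scaling under such broad change was not simulated. Library pairs within a genotype differed by 2.17 to 4.18 times the counting variance, so none were merged. No label says that the libraries are separate cultures, and p-values therefore cover no more than the spread among them, which may be technical.

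The members and lists were chosen with earlier results of these data known. All members are counted, but 1 is not reported here by its values and is not drawn in the plots. The rule for named genes gives Kmt2c, Plau, Plat, Plaur and the Timps, called members changed at least 2-fold with a mean of at least 1 CPM in the higher group, abundant members (at least 20 CPM) that were not called or changed by under 1.2-fold, and the 3 smallest p of each partner list. Other genes named, and the split at 30 CPM, were chosen after their values were seen. Alternatives were other scalings, filters and tests, removal of chromosome medians and each library left out.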

Additional observations from a re-analysis of the deposited data

How the results depend on the processing

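Of the 38 called members, 30 kept direction and call under each of the 14 alternatives in which they were tested, and 8 lost the call under at least 1; of the 9 uncalled, 4 passed under at least 1. The cause was not tested. Serpinh1 turned from -0.13 to 0.029 with upper-quartile scaling, and this was the only sign change among called members. The number of called members was 38 and ran from 29 (at least 1 CPM in every library, 37 tested) to 42 (no filter, 71 tested), and from 36 to 39 when 1 library was left out. Upper-quartile scaling moved the median log2 change of all genes from 0.02 to 0.17, the higher share of all calls from 49.9% to 63.7% and that of member calls from 71.1% to 76.9%. Library size alone gave 0.14, 60.5% and 75.7%.

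Members at least 2-fold higher numbered 17, and 10 with at least 1 CPM in every library, where fewer genes were tested. Members at least 2-fold lower numbered 2, but 1 with upper-quartile scaling, library size alone or limma voom, 4 with chromosome medians removed, and 1 to 4 when 1 library was left out: 4 without knock-out column sg2 and 1 without sg3. Called serpins numbered 11, and 6 of 11 tested with at least 1 CPM in every library. With Plat passing, both tested genes of the plasminogen system (2, against 1) were called with upper-quartile scaling, library size alone and chromosome medians removed. Kmt2c stayed lower and called throughout, and the counts of calls over all genes stayed within 1.5 times the reported ones.

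No paired analysis was possible because the knock-out columns carry numbers that the labels do not tie to replicates. Depth limits the 24 members that were not tested, which had at most 19 counts in any library.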
